A study of Mus musculus with 13 samples.

Results

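In C2C12 cells, a mouse myoblast line, 150 of 18193 measured genes were singled out because their values were lowest in the middle of a serum time course. For each gene, log2 ratios were averaged over the probe sets that name it and no other gene, where the ratio is the deposited value of an array relative to a reference value of the probe set. In 36481 of 45037 probe sets exactly 1 of the 13 arrays has a ratio of 1, so a log2 ratio of 0 is set by the arrays themselves and is no baseline of the cells. The score of a gene is the smallest of 3 differences: the 0 h value, the early mean and the late mean, each minus the middle mean. The 150 genes with the highest scores are the members, so the depth of their dip was the ground for choosing them and is described here with no test. The cells had been kept for 24 h in medium with 0.2% fetal bovine serum, starting at 90% confluence after growth in 5% serum, and were then given serum again. They came from parallel flasks, and all 13 arrays used here share that treatment. The arrays were grouped by labelled time: 0 h (1 array), early (0.5, 1.0, 1.5 and 2.0 h), middle (2.5, 3.0, 3.5 and 4.0 h) and late (4.5, 5.0, 5.5 and 6.0 h). Each time had 1 array, no time was repeated, and no continuously fed culture is among these arrays, so a course that every flask would follow after a change of medium is part of each comparison. The study looked for oscillating genes in this line as a model of somite formation.

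Cells held without serum leave the division cycle, and FoxO factors then keep growth-restraining genes active. When serum returns, growth factor signalling shuts FoxO factors out of the nucleus and starts a wave of immediate-early transcription, followed by delayed early genes and, hours later, by preparation for DNA replication. Transcripts that go down and come back within hours are known from the segmentation clock, whose cyclic genes repress their own transcription and make short-lived RNA.

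The 3 members with the highest scores were Nr2f1, Ninl and Rbbp9, and the 250 bases before an annotated start of each are shown because they stand for the promoters searched further on. The sequences are from RefSeq on build GRCm38.p6, at chr13:78198874-78199123 for Nr2f1, chr2:151009399-151009648 for Ninl and chr2:144550860-144551109 for Rbbp9, each on the minus strand. They are printed 5′ to 3′, and capitals mark the GC box GGGCGG or its reverse complement CCGCCC.
Nr2f1: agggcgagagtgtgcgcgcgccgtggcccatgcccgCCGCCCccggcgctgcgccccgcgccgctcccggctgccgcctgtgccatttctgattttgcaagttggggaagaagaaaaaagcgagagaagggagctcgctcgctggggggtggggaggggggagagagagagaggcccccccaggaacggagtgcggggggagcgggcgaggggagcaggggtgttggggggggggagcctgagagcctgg
Ninl: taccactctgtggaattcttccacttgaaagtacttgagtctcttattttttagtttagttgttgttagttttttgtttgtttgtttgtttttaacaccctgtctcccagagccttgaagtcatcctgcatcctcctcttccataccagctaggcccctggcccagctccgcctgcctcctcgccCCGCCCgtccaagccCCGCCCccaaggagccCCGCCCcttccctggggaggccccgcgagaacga
Rbbp9: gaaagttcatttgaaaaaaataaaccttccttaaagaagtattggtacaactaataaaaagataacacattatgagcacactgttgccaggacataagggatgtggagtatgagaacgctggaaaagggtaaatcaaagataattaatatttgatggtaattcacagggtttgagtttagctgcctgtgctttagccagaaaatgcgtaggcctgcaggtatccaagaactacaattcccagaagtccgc
The Nr2f1 stretch, 1 of 2 promoters listed for this gene, holds 1 GC box, the Ninl stretch holds 3 and the Rbbp9 stretch holds 0.

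The members shared a course that the rule fixed only in part. Their median log2 ratio was 0.24 at 0 h, then 0.23, 0.21, 0.01 and -0.03 on the 4 early arrays, -0.44, -0.47, -0.46 and -0.43 across the middle window and -0.07, -0.01, 0.01 and 0.17 on the 4 late arrays. Over all genes the medians stayed between -0.05 and 0.00. The rule, which sets the middle mean against the windows on both sides, fixes that the members step down into the middle window and up out of it, so these steps are given as sizes only. They had a median of -0.39 from 2.0 to 2.5 h and of 0.32 from 4.0 to 4.5 h. Over all genes these steps were -0.05 and 0.04. The descent had begun before the window, with a median step of -0.18 between 1.0 and 1.5 h, where 138 of 150 members (and 50.003% of all genes) went lower. The climb went on after it, with 123 of 150 members higher and 27 lower at 6.0 h than at 5.5 h, where 47.2% of all genes were lower. The rule also used the early and late means. Genes chosen to be high, low and high again would go down before the window and up after it on any gradual course. These counts are therefore a description, and the share of all genes is no measure for such members.

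**Figure D1:**
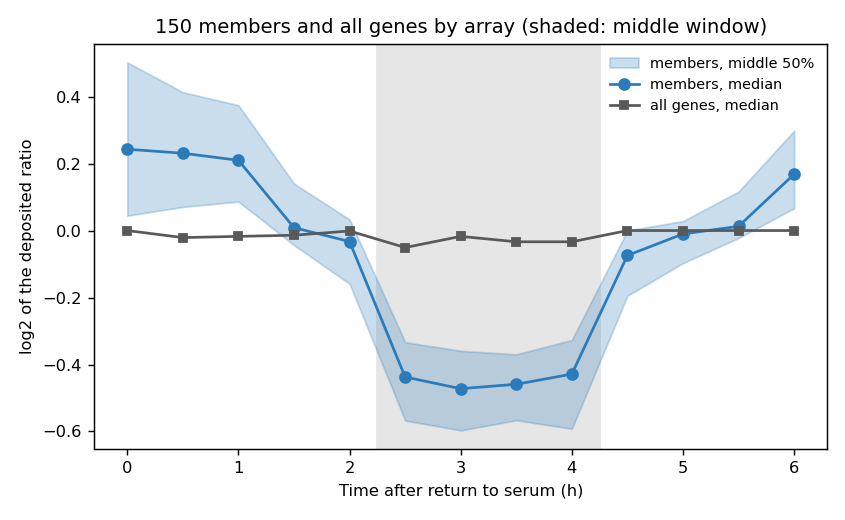
Median log2 ratio of the 150 members (blue, with the middle 50% of members as a band) and of all 18193 genes (grey) on each array, against hours after the return to serum. The members sit between -0.47 and -0.43 on the shaded middle arrays and at 0.24 at 0 h and 0.17 at 6.0 h, while all genes stay within 0.05 of 0.

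Over the whole table, neighbouring arrays correlated least at the borders of the middle window. The correlation over probe sets was 0.740 between 1.5 and 2.0 h and 0.495 between 2.0 and 2.5 h. Within the window it was 0.580 between 2.5 and 3.0 h, 0.556 between 3.0 and 3.5 h and 0.655 between 3.5 and 4.0 h. It was 0.533 between 4.0 and 4.5 h, little below the lowest value inside the window, and 0.684 between 4.5 and 5.0 h. The median ratio of the middle arrays was 0.977 to 0.991, against 0.990 to 1.00 on the other arrays. No date of hybridisation was known for any array, so a difference in handling of the middle arrays and a change in the cells cannot be told apart. The 3′ actin control had log2 ratios of -0.10, -0.04, -0.10 and -0.08 on the middle arrays and -0.05 to 0.13 on the others. Its 5′ minus 3′ difference, a measure of RNA integrity, was 0.01 to 0.08 on the middle arrays and -0.01 to 0.08 elsewhere, so the 2 sets of arrays overlapped. The 3′ Gapdh control was at -0.062, -0.017, -0.117 and -0.116 on the middle arrays and at -0.059 to 0.068 on the others. The 5′ control of 18S ribosomal RNA was at -1.14, -1.33, 0.31 and 1.09 on the middle arrays and at -1.28 to 2.39 on the others. The part of these values in the dip was not tested. Ratios carry no level, so the labelled cell type could not be checked against its markers. The score says nothing on cell type either. It was above 0 in 4 of 11 myoblast, 12 of 35 differentiated muscle and 5 of 9 fibroblast markers. It was above 0 in 0 of 18 blood and endothelial markers and in 0 of 8 adipocyte and osteoblast markers.

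Scores of the members ran from 0.97 to 0.34 with a median of 0.41. Just inside the limit lay Tnrc6b (0.343), Tenm3 (0.341), Tubb3 (0.340), Hspa1a (0.339) and Zfp931 (0.338), and just outside it Fnip1 (0.338), Marcks (0.337), Phldb2 (0.335), Polr3c (0.334) and Ttc8 (0.334). The limit therefore falls inside a smooth run of scores and not at a gap. Hspa1a has a near-identical copy, Hspa1b, and its probe set may read both. The mirror image, a peak in the middle window of the same form, was smaller: the 150 highest peak scores ran from 0.72 to 0.20, and 17 genes reached the lowest score of a member. A score above 0 was found in 5314 genes (29.2%), and a peak score above 0 in 3524 genes (19.4%). Over all genes the middle mean minus the 0 h value had a median of -0.03, and minus the late mean one of -0.02. Such a shift adds to dip scores and takes from peak scores, and its part in the difference was not tested.

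**Figure D2:**
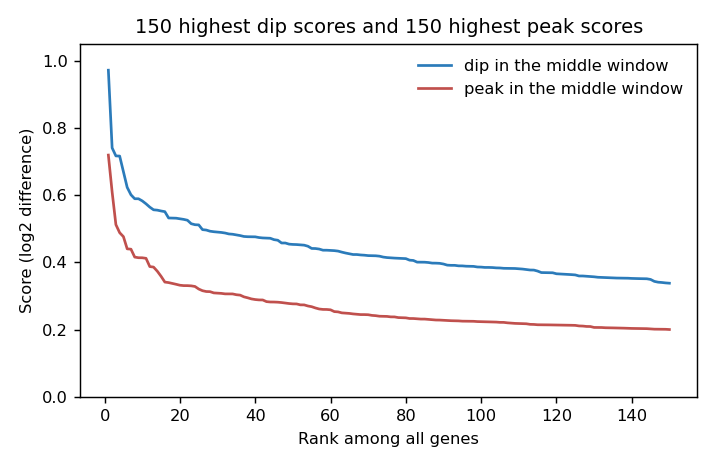
Scores (log2 difference between the middle mean and the nearest other window) of the 150 highest genes for a dip (blue) and for a peak (red) in the middle window, against rank. The dip scores lie between 0.97 and 0.34 and the peak scores between 0.72 and 0.20, with the dip curve above the peak curve at every rank shown.

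The label of a dip in the middle window only does not hold strictly for every member. In 107 of 150 members the 4 middle arrays lay below all 9 others, a pattern shown by 3.86% of all genes, and from which nothing is read here because the rule used these values. In the other 43 at least 1 other array lay at or below the highest middle one, which was the 2.0 h array in 23 members and the 4.5 h array in 14. Ccng2 and Zfhx4 had their lowest value at 2.0 h, outside the window. The late mean was the nearest to the middle in 83 members, the early mean in 40 and the 0 h value in 27. Of the 3 other windows, 0 h was highest in 100 members, the early window in 30 and the late window in 20. The middle mean lay below the 0 h value by a median of 0.69 and below the early and late means by medians of 0.53 and 0.45. A group of 35 members stood more than 0.5 higher at 0 h than in the late window, so they had not returned to the 0 h value.

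Which array of the middle window was lowest was not part of the rule. The lowest of the 4 was 2.5 h in 36 members, 3.0 h in 35, 3.5 h in 33 and 4.0 h in 46. Over all genes the shares were 33.4%, 18.7%, 22.1% and 25.7%, and for the members they were 24%, 23.3%, 22% and 30.7%. With any one of the 4 middle arrays left out, 124 to 130 of the 150 members stayed among the 150 highest scores.

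**Figure D3:**
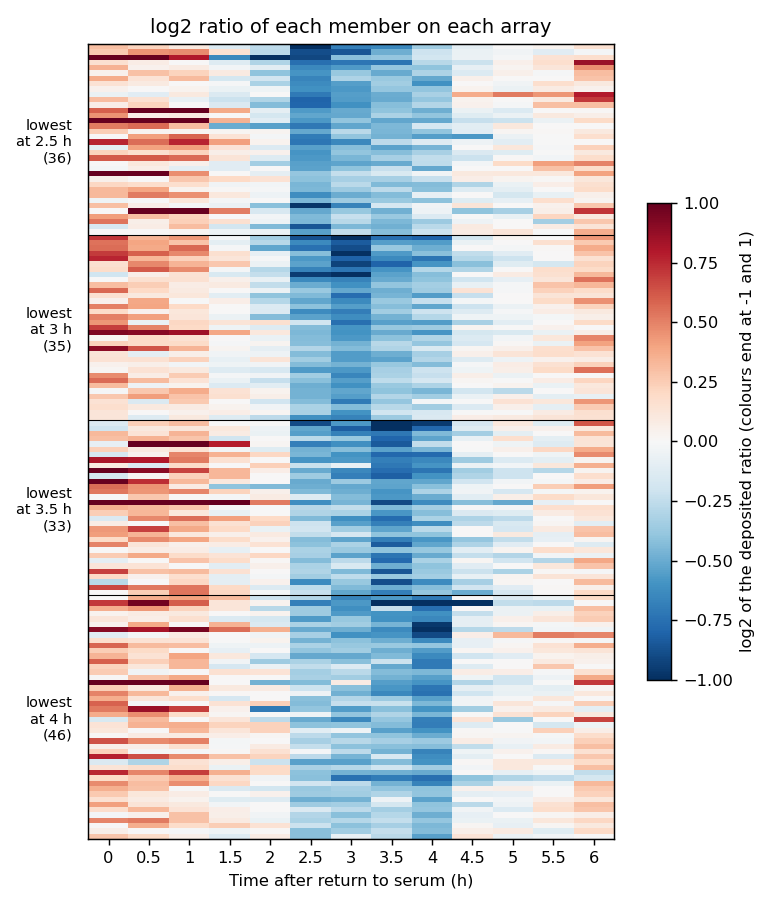
Log2 ratio of each of the 150 members (rows) on each of the 13 arrays (columns, hours after the return to serum), in blocks by the middle array on which the member was lowest and by score within a block, with colours ending at -1 and 1. The 4 middle columns are mostly blue in every block (36, 35, 33 and 46 members), and red is strongest from 0 to 1.0 h.

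To describe the members by what they do, 88 of them were placed in 10 role groups after their values had been seen, so the groups carry no test and no claim that a role is more common here than elsewhere. The other 62 had mixed or less certain roles. Genes beyond those the naming rule gave are named below because of their role.

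Transcription factors and chromatin proteins made up 20 members with scores up to 0.97. Nr2f1, which encodes the orphan nuclear receptor COUP-TFI, was at 0.71 at 0 h, at 0.34, 0.44, -0.02 and -0.34 on the early arrays, at -0.87, -1.19, -0.75 and -0.80 across the middle window and at -0.18, 0.03, 0.00 and 0.43 across the late one. It was thus high before serum, at -0.02 by 1.5 h, was lowest at 3.0 h and was at 0.03 by 5.0 h, with no overlap between the middle arrays and the rest. Mllt3, a subunit of complexes that release paused RNA polymerase, was at 0.16 at 0 h, at 0.48, 0.34, 0.27 and -0.06 on the early arrays, at -0.53, -0.92, -0.80 and -0.59 across the middle window and at -0.41, -0.12, -0.17 and 0.22 across the late one. It was highest at 0.5 h, and all 3 of its probe sets had scores above 0, between 0.28 and 0.61. Trps1, a GATA-type repressor, was at 0.26 at 0 h, at 0.45, 0.47, 0.16 and -0.27 on the early arrays, at -0.89, -0.85, -0.49 and -0.21 across the middle window and at -0.06, -0.04, -0.11 and -0.02 across the late one. Its low point was at 2.5 and 3.0 h, and 4.0 h overlapped with 2.0 h. Of its 4 probe sets, 3 scored 0.66 to 0.87 and 1 scored -0.05, so its probe sets disagree. Eid1, an inhibitor of the p300 acetyltransferase that restrains MyoD, was at 0.35 at 0 h, at 0.04, 0.08, -0.03 and -0.10 on the early arrays, at -0.64, -0.56, -0.39 and -0.40 across the middle window and at -0.08, 0.03, 0.12 and 0.46 across the late one. The middle arrays of Eid1 did not overlap with the others. Large homeodomain and zinc finger factors were among the group too: Zfhx3 (score 0.37, 6 probe sets scoring -0.01 to 0.56), Zfhx4 (0.41), Tshz1 (0.46), Zbtb18 (0.40), Zbtb12 (0.41) and Zbtb1 (0.38). The probe sets of Zbtb1 disagreed, with scores of -0.21 and 0.31, and neither reached the lowest score of a member. Zfhx4 was at 0.52 at 0 h, at 0.87, 0.69, 0.04 and -0.71 on the early arrays, at -0.39, -0.56, -0.42 and -0.60 across the middle window and at -0.35, 0.04, 0.09 and -0.10 across the late one, so its trough was reached at 2.0 h and held through 4.0 h.

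Centrosome, cilium and microtubule genes made up 13 members. Ninl, ninein-like protein of the centrosome, was at -0.13 at 0 h, at 0.24, 0.31, 0.01 and 0.00 on the early arrays, at -0.89, -0.58, -1.06 and -0.96 across the middle window and at -0.17, 0.11, -0.12 and 0.62 across the late one. Its largest step down lay between 2.0 h, at 0.00, and 2.5 h, at -0.89, and all 4 middle arrays lay below the others. Cenpj and Stil, which are needed to build centrioles, had scores of 0.58 and 0.56. Cenpj was at 0.19 at 0 h, at 0.61, 0.47, -0.02 and -0.28 on the early arrays, at -0.67, -0.72, -0.59 and -0.29 across the middle window and at -0.30, 0.00, 0.18 and 0.19 across the late one. Stil was at 0.01 at 0 h, at 0.36, 0.40, 0.32 and -0.21 on the early arrays, at -0.29, -0.66, -0.57 and -0.70 across the middle window and at 0.00, -0.14, -0.06 and 0.19 across the late one. Both were highest at 0.5 to 1.0 h, but Cenpj was lowest at 3.0 h and Stil at 4.0 h, and in Cenpj the 4.5 h array overlapped with the middle ones. Proteins of the basal body and of the cilium included Alms1 (score 0.51), Ofd1 (0.44), Cep290 (0.35), Cc2d2a (0.36), Ttc23 (0.53) and the intraflagellar transport gene Ttc30b (0.43). Ttc30b was at 1.61 at 0 h, at 1.20, 1.06, 0.00 and -0.47 on the early arrays, at -0.43, 0.09, -0.55 and -0.59 across the middle window and at -0.29, -0.19, 0.00 and 0.71 across the late one. Its 0 h value was the highest of the group, and its 3.0 h array stood above 0. Cep290 was at -0.28 at 0 h, at 0.01, 0.21, -0.09 and 0.04 on the early arrays, at -0.63, -0.38, -0.89 and -0.63 across the middle window and at -0.33, 0.02, 0.00 and 0.31 across the late one, so its 0 h value set its score, which was 0.35 with the 0 h array and 0.63 without it.

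Genes of the kinetochore, mitosis, DNA replication and genome upkeep numbered 15. Dsn1, a subunit of the kinetochore's Mis12 complex, was at 0.33 at 0 h, at 0.13, 0.34, 0.08 and -0.07 on the early arrays, at -0.55, -0.68, -0.71 and -0.44 across the middle window and at -0.34, -0.10, 0.00 and 0.31 across the late one. Its middle arrays did not overlap with the others. Rfc4, a subunit of the clamp loader that places PCNA on DNA, was at 0.00 at 0 h, at 0.16, 0.15, 0.05 and -0.08 on the early arrays, at -0.64, -0.67, -0.51 and -0.40 across the middle window and at -0.20, -0.08, 0.12 and 0.54 across the late one. Gmnn, geminin, which blocks relicensing of replication origins, was at 0.16 at 0 h, at 0.07, 0.00, -0.13 and -0.30 on the early arrays, at -0.76, -0.72, -0.73 and -0.27 across the middle window and at -0.21, 0.05, 0.17 and 0.86 across the late one. For Rfc4 and Gmnn the 6.0 h array was the highest of all 13, above 0 h. The same was true of E2f7, a repressor of E2F targets, which was at 0.00 at 0 h, at 0.11, 0.05, -0.12 and -0.34 on the early arrays, at -0.55, -0.53, -0.51 and -0.26 across the middle window and at -0.02, 0.19, 0.41 and 0.50 across the late one. Aurkb, the mitotic kinase of the chromosomal passenger complex, was at 0.00 at 0 h, at 0.41, 0.58, 0.14 and -0.02 on the early arrays, at -0.70, -0.39, -0.47 and -0.55 across the middle window and at -0.57, -0.06, 0.00 and 0.16 across the late one; here 4.5 h still lay with the middle arrays. The 2 probe sets of Aurkb scored 0.18 and 0.65. Both are of a type that can bind related transcripts, so Aurkb had no score without such probe sets. Dnmt1, the maintenance DNA methyltransferase, had window values of 0.02 at 0 h, 0.07 ± 0.12 early, -0.43 ± 0.11 in the middle and 0.11 ± 0.27 late (mean ± SD, n = 4 arrays per window). Its score rests in part on 2 probe sets of a type that can bind related transcripts, and was 0.22 with the remaining probe set alone. Ska3, Cenpi, Zwilch, Ncapg2 and Depdc1a, all linked to kinetochores, chromosomes or mitosis, had scores of 0.40, 0.38, 0.39, 0.43 and 0.39.

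Growth control, autophagy and starvation-response genes made up 9 members. Ccng2, cyclin G2, a FoxO target that restrains division, was at 1.73 at 0 h, at 1.37, 0.80, -0.64 and -1.05 on the early arrays, at -0.91, -0.41, -0.38 and -0.18 across the middle window and at -0.06, -0.01, 0.14 and 0.17 across the late one. It spanned the widest range of these genes, and its minimum at 2.0 h preceded the middle window, through which it climbed on every array. Sesn1, sestrin 1, an inhibitor of the growth kinase mTORC1, was at 1.51 at 0 h, at 1.23, 1.15, 0.35 and -0.12 on the early arrays, at -0.57, -0.40, -0.52 and -0.52 across the middle window and at -0.23, -0.21, -0.06 and 0.19 across the late one. Its 4 probe sets disagreed: 2 scored 0.76 and 0.80, and 2 scored 0.17 and -0.15. Klhl24, a ubiquitin ligase adaptor, had window values of 0.93 at 0 h, 0.56 ± 0.38 early, -0.54 ± 0.07 in the middle and -0.08 ± 0.11 late (mean ± SD, n = 4 arrays per window). Its 5 probe sets scored -0.11 to 0.66. Gabarapl1, which encodes an autophagosome protein, was at 0.58 at 0 h, at 0.31, 0.31, -0.04 and -0.05 on the early arrays, at -0.32, -0.38, -0.37 and -0.39 across the middle window and at -0.08, 0.02, 0.15 and 0.36 across the late one. Its middle arrays lay between -0.39 and -0.32 and did not overlap with the others, and its 2 probe sets scored 0.71 and 0.23. The group held a pair of lipid kinase subunits, Pik3ca (0.40, the catalytic subunit of growth factor signalling, with 6 probe sets scoring -0.11 to 0.70) and Pik3r4 (0.39, of the autophagy kinase complex). Prkaa1, a catalytic subunit of the energy sensor AMPK (0.47), the autophagy protease gene Atg4c (0.38) and Trim63, a muscle atrophy ubiquitin ligase (0.37), completed it. The probe sets of Atg4c disagreed, with scores of 0.81 and -0.05. Trim63 was at 0.15 at 0 h, at -0.14, 0.26, 0.00 and -0.19 on the early arrays, at -0.43, -0.71, -0.39 and -0.02 across the middle window and at -0.01, 0.15, 0.12 and 0.44 across the late one; it overlapped with other arrays at 4.0 h.

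Muscle genes numbered 4. Myf5, the myogenic factor of proliferating myoblasts, was at 0.30 at 0 h, at 0.34, 0.28, -0.19 and 0.00 on the early arrays, at -0.27, -0.38, -0.79 and -0.52 across the middle window and at -0.07, 0.17, -0.10 and 0.14 across the late one. It was lowest at 3.5 h, and the middle arrays did not overlap with the others. Six4, a homeobox factor of the muscle lineage, was at 0.23 at 0 h, at -0.02, -0.01, 0.01 and 0.15 on the early arrays, at -0.02, -0.26, -0.47 and -0.66 across the middle window and at -0.04, 0.04, 0.02 and 0.15 across the late one. It moved late within the window, as 2.5 h was still at -0.02. The 4 probe sets of Six4 scored 0.04, 0.21, 0.46 and 0.52. Neb, the giant thin-filament protein nebulin, had window values of 0.44 at 0 h, 0.11 ± 0.12 early, -0.51 ± 0.23 in the middle and -0.06 ± 0.21 late (mean ± SD, n = 4 arrays per window), and Mymx, a peptide of myoblast fusion, of 0.54 at 0 h, 0.10 ± 0.13 early, -0.38 ± 0.08 in the middle and -0.03 ± 0.25 late (mean ± SD, n = 4 arrays per window). Dubr, a long non-coding RNA known for a part in myoblast differentiation and held outside the role groups, was at 0.70 at 0 h, at 0.59, 0.48, 0.16 and -0.08 on the early arrays, at -0.42, -1.16, -0.56 and -0.42 across the middle window and at -0.24, -0.11, 0.00 and 0.28 across the late one, with its minimum at 3.0 h.

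Interferon-induced genes and chemokines numbered 5. Ifit2, an interferon-induced RNA-binding protein, was at -0.20 at 0 h, at 0.07, 0.14, -0.15 and -0.24 on the early arrays, at -0.95, -1.17, -0.54 and -0.43 across the middle window and at 0.00, 0.08, 0.16 and 0.32 across the late one. It was lowest at 3.0 h and was level with or above its 0 h value from 4.5 h on. Ifi204 and Oasl2, which also belong to the interferon response, had scores of 0.49 and 0.39. Oasl2 stood at 0.78 at 0 h, while Ifi204 stood at -0.17. Cxcl12, the chemokine that attracts Cxcr4-bearing cells, was at 0.31 at 0 h, at 0.24, 0.07, 0.09 and -0.24 on the early arrays, at -0.49, -0.61, -0.39 and -0.34 across the middle window and at -0.08, -0.01, 0.29 and 0.33 across the late one. Of its 3 probe sets, 2 scored 0.46 and 0.53 and 1 scored -0.05. Cxcl5, a chemokine that attracts neutrophils, was at 0.00 at 0 h, at 1.04, 1.98, 0.51 and -0.16 on the early arrays, at -0.51, -0.38, -0.48 and -0.05 across the middle window and at -0.41, -0.33, 0.06 and 0.72 across the late one. Its course was mainly an early peak at 1.0 h, and 2.0, 4.5 and 5.0 h overlapped with the middle window.

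Of 8 mitochondrial members, Hibch, an enzyme of valine breakdown, had the highest score (0.53), and was at 0.12 at 0 h, at 0.07, 0.16, -0.14 and -0.18 on the early arrays, at -0.57, -0.38, -0.61 and -0.64 across the middle window and at -0.09, 0.05, 0.12 and 0.26 across the late one. Mtif2, a translation initiation factor of mitochondria, stayed between -0.06 and 0.08 on all 9 arrays outside the middle window and lay between -0.60 and -0.39 inside it. Opa1 (0.36) and Oma1 (0.36), a fusion GTPase of the inner membrane and the protease that cleaves it, were both members, though Oma1 was lowest at 2.5 h (-0.97) and near 0 by 4.0 h (-0.04) while Opa1 was level at -0.45 to -0.36. The values of Opa1 are means of 3 probe sets, which scored 0.13, 0.21 and 0.59. Among 5 genes of RNA processing, Ythdc1, the nuclear reader of N6-methyladenosine, was at 0.03 at 0 h, at 0.08, 0.10, 0.00 and 0.03 on the early arrays, at -0.35, -0.57, -0.60 and -0.60 across the middle window and at -0.24, -0.05, 0.06 and 0.23 across the late one. It was flat before the window, between 0.00 and 0.10. Apaf1 (0.47), Birc2 (0.42), Gadd45a (0.42) and Pmaip1 (0.40), regulators of cell death and of the stress response, formed a group of 4. Apaf1 is the apoptosome scaffold and Pmaip1 encodes the BH3-only protein Noxa; Gadd45a was at 0.59 at 0 h, at -0.02, 0.00, 0.14 and 0.24 on the early arrays, at -0.44, -0.23, -0.22 and -0.45 across the middle window and at -0.03, 0.12, -0.01 and 0.25 across the late one. Receptor, adhesion and actin genes included Diaph2, a formin that nucleates actin filaments, which was at -0.20 at 0 h, at 0.10, 0.12, 0.10 and -0.05 on the early arrays, at -0.52, -0.83, -1.01 and -0.78 across the middle window and at -0.12, 0.05, 0.04 and 0.10 across the late one. Its 0 h value set its score, which was 0.80 without the 0 h array. Fzd2, a Wnt receptor (0.39), and the adhesion genes Pcdh7 (0.38), Adgrl2 (0.38) and Tenm3 (0.34) were in this group. Their probe sets disagreed, with scores of 0.22, -0.25 and 0.61 for Pcdh7, 0.55, 0.64 and -0.17 for Adgrl2 and 0.14 and 0.53 for Tenm3, so that Tenm3 scored 0.14 when 1 probe set per gene was used.

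Among the members outside the role groups, Rbbp9, a serine hydrolase known to bind the retinoblastoma protein, was at 0.54 at 0 h, at 0.40, 0.28, -0.10 and -0.28 on the early arrays, at -0.63, -0.83, -0.55 and -0.56 across the middle window and at -0.07, 0.00, 0.16 and 0.26 across the late one. It descended from 0 h on and was lowest at 3.0 h. Zfand4, a zinc finger gene, was at 0.56 at 0 h, at 0.38, 0.57, -0.01 and -0.52 on the early arrays, at -0.74, -0.89, -0.38 and -0.49 across the middle window and at 0.00, -0.02, 0.01 and 0.37 across the late one. Its 2.0 h value of -0.52 lay among the middle ones. Otud1, a deubiquitinase gene, was at -0.08 at 0 h, at 1.10, 1.43, 0.78 and 0.02 on the early arrays, at -0.69, -0.61, -0.84 and -0.24 across the middle window and at 0.00, -0.05, -0.13 and 0.13 across the late one, an early peak before the dip. Pcmtd2 stood at 0.91 at 0 h and at 0.35 to 0.95 on the early arrays, stayed below 0 on all late arrays and was lowest at 4.0 h (-1.02). Ppip5k2, an inositol pyrophosphate kinase, had window values of -0.12 at 0 h, 0.01 ± 0.05 early, -0.61 ± 0.23 in the middle and 0.35 ± 0.20 late (mean ± SD, n = 4 arrays per window) and was among the 20 members highest in the late window. Dipk1a, Armcx1, Crybg1, Herpud2 and Asnsd1 had scores of 0.67, 0.60, 0.55, 0.49 and 0.49.

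**Figure D4:**
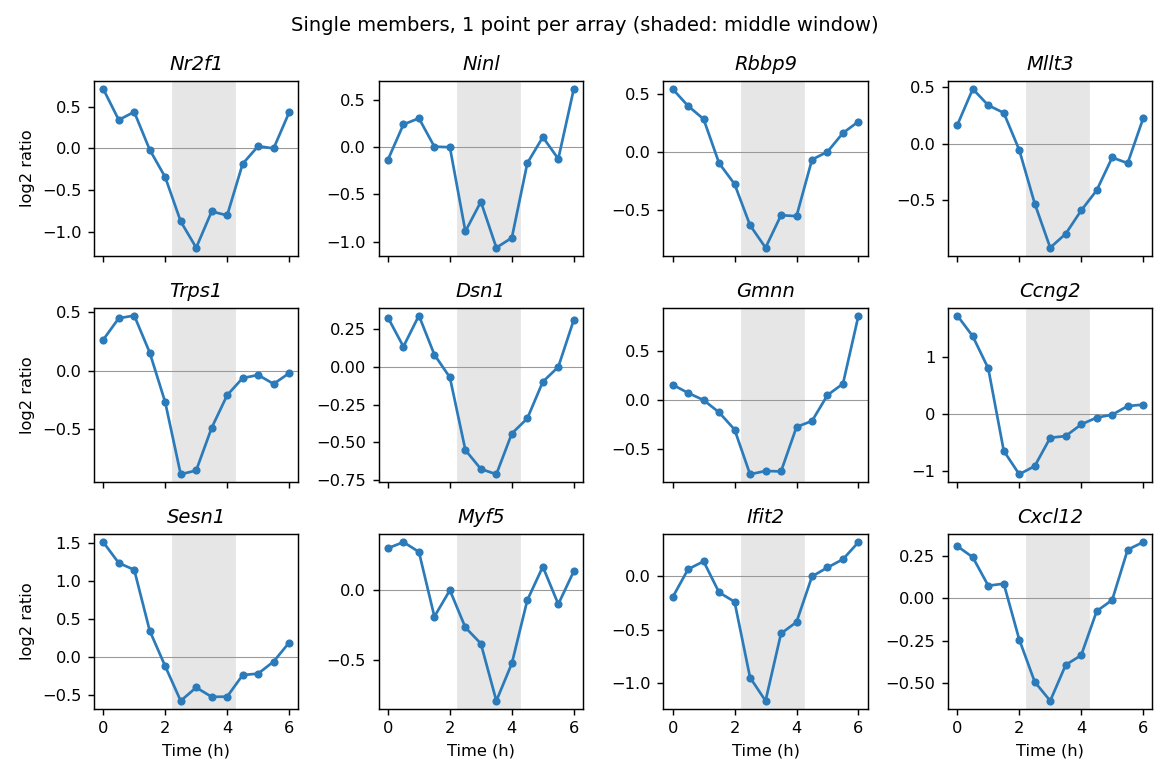
Log2 ratio of 12 members on each of the 13 arrays, against hours after the return to serum, with the middle window shaded and a separate vertical scale for each gene. Nr2f1, Ninl, Dsn1, Ifit2 and Myf5 keep all 4 middle points below the other 9, whereas Ccng2 is lowest at 2.0 h (-1.05) and Trps1 is at -0.21 by 4.0 h.

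The rule takes only window means, so the difference between the later and the earlier arrays of a window did not enter it directly, but the same arrays did. Genes chosen to be high at first, low in the middle and high again would, on any gradual course, go down through the early window and up through the late one. The share of all genes is therefore no measure of what such members would show without change, and the counts of members in the early and late windows are a description. For each window the later 2 arrays were compared with the earlier 2 in one limma fit over all genes, with Benjamini-Hochberg adjustment over 18193 genes. In the early window, 25 of 150 members (16.7%) fell and 0 rose, against 1.31% of all genes lower and 1.35% higher. The difference was below 0 in 137 members, with a median of -0.23 for the members and 0.01 for all genes. The p-values treat neighbouring times as repeats and measure the spread within pairs of arrays, so they hold technical variation and real change together. The count depended on single arrays and on the scaling: it was 5 members (3.33%) without the 0.5 h array, where 0.247% of all genes fell, and 5 without the 2.0 h array, where 0.187% did. With quantile normalization 6 members fell (0.434% of all genes), and with only the 4 early arrays in the fit 0 members and 0 genes passed.

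The members that fell most, by the log2 difference of 1.5 and 2.0 h minus 0.5 and 1.0 h ± SE, were Ccng2, at -1.93 ± 0.19 (adjusted p = 4.92e-04), Ttc30b, at -1.36 ± 0.21 (adjusted p = 0.00646), and Cxcl5, at -1.34 ± 0.29 (adjusted p = 0.0287), in limma with Benjamini-Hochberg adjustment. Zfhx4 followed, at -1.11 ± 0.20 (adjusted p = 0.0109), and Sesn1, at -1.07 ± 0.13 (adjusted p = 0.00176). Of these 5, Cxcl5 stood at 0.00 at 0 h and was falling from a peak, while the other 4 were already above 0.5 at 0 h. The call of Ccng2 was lost in 1 of 21 alternatives and that of Sesn1 in 2; the calls of Cxcl5 and Zfhx4 were lost in 4 each and that of Ttc30b in 3. Other members that passed were Birc2 (-0.96), which encodes an inhibitor of apoptosis, Ampd3 (-0.96), an AMP deaminase, Filip1l (-0.87), Klhl24 (-0.64), Cenpj (-0.69) and Rbbp9 (-0.53). Trps1 (-0.52) passed at adjusted p = 0.0451 and Gabarapl1 (-0.36) at adjusted p = 0.0363 in limma, and these calls were lost in 13 and 12 of 21 alternatives. Tnrc6b (-0.50), a scaffold of microRNA silencing, passed too and was lost in 5.

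Inside the middle window 0 members passed in either direction, against 0.0165% of all genes higher and 0.033% lower, by limma. At an unadjusted p under 0.05 there were 19 members higher (12.7%) and 16 lower (10.7%), against 6.35% of all genes higher and 5.90% lower, and the difference was above 0 in 75 members and below 0 in 75. The smallest adjusted p among members was 0.0574, for Ifit2, whose difference was 0.58 ± 0.09. Oma1 had the largest positive difference, 0.72 ± 0.13, and Crybg1 the largest negative one, -0.61 ± 0.20. After quantile normalization 1 member passed, upward.

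Inside the late window 0 members and 0 of 18193 genes passed by limma, and the smallest adjusted p over all genes was 0.139. At an unadjusted p under 0.05 there were 1239 genes (4.02% of all genes higher and 2.79% lower), among them 50 members higher (33.3%) and 0 lower. The difference was above 0 in 141 of 150 members (94%) and in 54.1% of all genes, with medians of 0.17 and 0.01. Cxcl5 (0.75 ± 0.29) and Gmnn (0.60 ± 0.19) had the largest values, with adjusted p = 0.671 and 0.594 in limma. Whether the early and the late window differ in this respect was not tested.

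**Figure D5:**
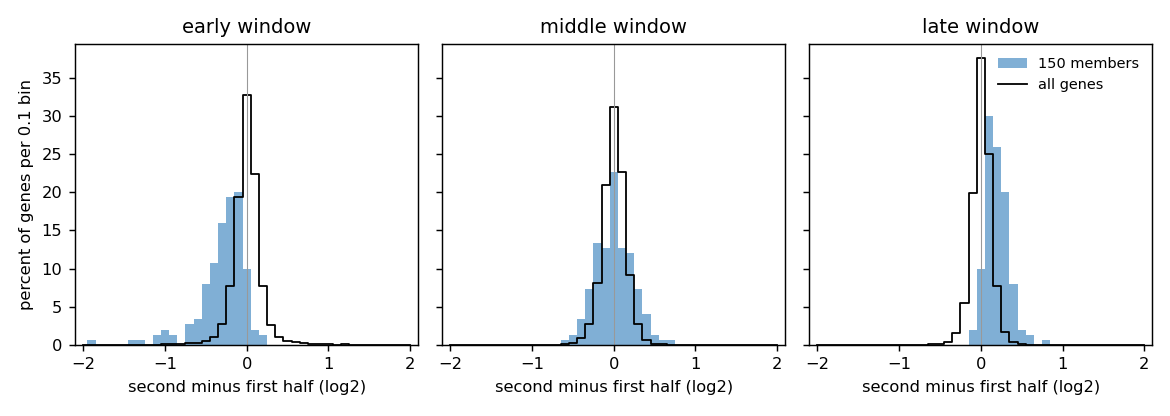
Percent of the 150 members (blue bars) and of all 18193 genes (black line) by the log2 difference between the later 2 and the earlier 2 arrays of the early, middle and late window, in bins of 0.1, with differences beyond 2 counted in the end bins. The members lie to the left of all genes in the early window (median -0.23), around 0 in the middle window (median 0.00) and to the right in the late window (median 0.17).

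Members were counted in 32 pathway and marker lists, which had been drawn up with earlier results of these data known. Over all measured genes the members were 150 of 18193. The list of p53 targets and apoptosis genes held 5 members of 27 measured (Apaf1, Ccng2, Gadd45a, Pmaip1 and Sesn1), and that of quiescence and FoxO targets held 4 of 24 (Ccng2, Gabarapl1, Sesn1 and Trim63), of which Ccng2 and Sesn1 stand in both. The median score was -0.02 and -0.0022 in these lists and -0.07 over all genes, with 13 and 12 genes above 0. Myoblast markers held 2 members of 11 (Myf5 and Six4) and had a median score of -0.11, with 4 of the 11 above 0. Interferon and STAT genes held 2 of 32 (Ifit2 and Oasl2), and NF-kappaB genes and cytokines 2 of 27 (Cxcl5 and Cxcl12).

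Most lists held few or no members. By the share over all genes, lists of this size would often hold none, so this is not read as an absence. Lists with 1 member were the G1 and S phase genes (E2f7, of 37), the G2 and M phase genes (Aurkb, of 29), chromatin regulators (Dnmt1, of 43), cilium and hedgehog genes (Cep290, of 29), differentiated muscle genes (Neb, of 35), Wnt genes (Fzd2, of 28), ubiquitin enzymes (Trim63, of 41), actin and YAP genes (Diaph2, of 32), mRNA decay genes (Tnrc6b, of 35) and heat shock chaperones (Hspa1a, of 17). The G2 and M phase list had a median score of 0.04 with 19 of 29 genes above 0, and the cilium list one of 0.04 with 17 of 29. There were 0 members among 30 immediate-early factors, 28 Notch pathway genes, 22 circadian genes and 35 ribosome biogenesis genes. The immediate-early list was lower in the middle than in the early window by a median of 0.66 but higher than in the late window by 0.28, and ribosome biogenesis genes were higher in the middle than in the early window by a median of 0.43. The lists of MAP kinase feedback, TGF-beta, sterol synthesis, ribosomal protein, oxidative phosphorylation, proteasome, splicing, extracellular matrix, endoplasmic reticulum stress and housekeeping genes held 0 members as well, as did the fibroblast, blood and adipocyte markers. By name, 10 members were zinc finger genes of 440 measured (6.67% of the members and 2.42% of all genes), 0 were solute carriers of 347, and 4 had provisional names of 1876 (2.67% and 10.3%).

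Promoters of 120 members were found by symbol in the RefSeq table (build GRCm38.p6), 158 in all, of 18109 promoters of measured genes. The window was 300 bases, from 250 before to 50 after the start, and each motif was sought on both strands. The GC box GGGCGG was in 60.8% of member promoters and 52.3% of all, and the median GC content was 60.7% and 58.3%. The E-box CANNTG was in 57% and 67.5%, its form CACGTG, which CANNTG includes, in 10.8% and 8.72%, and the N-box CACNAG of Hes factors in 33.5% and 41.7%. The CCAAT box, CCAAT, was in 36.1% and 37.4%, the TATA box, TATAAA, in 7.59% and 9.77%, the AP-1 site TGACTCA in 3.80% and 4.52%, the cyclic AMP response element TGACGTCA in 1.27% and 2.49%, and the ETS site CCGGAAGT in 5.70% and 5.83%. These shares describe letters in the windows and were not tested.

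Most members rest on a single probe set, 91 of 150 (60.7%), against 50.5% of all genes. The 59 members with several had 163 probe sets, of which 148 scored above 0 and 95 reached the limit of 0.338. In 44 of the 59 every probe set scored above 0, and in 11 every one reached the limit. Among all probe sets that name 1 gene, 29.8% scored above 0 and 1.72% reached the limit. Probe sets of a gene were averaged by the rule, so their joint dip is part of how members were chosen.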

How the data were processed

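Each sample was hybridised to 1 Affymetrix array. The deposited values are linear ratios per probe set to a reference that the authors set, with its making not stated; RMA is named per the submitters' processing notes, with no version. Of 45101 probe sets, 64 controls were left out, 34945 named 1 gene by the platform annotation, 932 named several and 9160 none. The log2 of the ratio was averaged over the probe sets of each of 18193 genes. No filter on low values was used, as ratios hold no level, so all 150 members were tested. The members, lists and tests were chosen with earlier results of these data known, and role groups after values were seen.

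The fit was limma 3.58.1 in R on 7 means: 0 h and the earlier 2 and later 2 arrays of each window, with Benjamini-Hochberg adjustment over all genes and a threshold of 0.05. It was tested on simulated data with known log2 changes. Of changes of 0.25 it called 4% in the early, 4% in the middle and 0% in the late window. Of changes of 0.5 it called 42%, 36% and 46%, and of changes of 1 it called 94%, 90% and 96%. Windows in which 0 members passed can therefore hold changes of 0.5 or less, and larger ones too. Differences among members of up to 0.72 in the middle and 0.75 in the late window did not pass. The changed genes were drawn from all genes, whose median SD within windows was 0.102, against 0.175 in the members. The shares called may therefore be too high for the members. The residual spread comes from neighbouring times, not from repeated cultures. Genes named are the 30 highest scores, 5 on each side of the limit, members in a list, and up to 5 rises and 5 falls per tested window; others were chosen for their role or after their values were seen. Alternatives were quantile normalization, centring, other summaries of probe sets, each array left out, fits on 1 window and a variance trend; leaving out probe sets on 1 side of a ratio of 1 was chosen after seeing the data. With 1 array per time, the number of arrays limits the precision.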

Additional observations from a re-analysis of the deposited data

Results flagged for a closer look

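In 7 of 156 groups of 4 arrays, formed by the named genes and the 3 windows, the highest or lowest array stood apart from the other 3 by more than Dixon's limit at 95%. Chance flags about 1 in 20 such groups, and times within a window are not repeats. Zfand4 stood at 0.37 at 6.0 h, against -0.02 to 0.01 on the other late arrays. Diaph2 stood at -0.0495 at 2.0 h, against 0.10 to 0.12 on the other early arrays, and Stil, a centriole gene, at -0.21 at 2.0 h, against 0.32 to 0.40. Gmnn stood at -0.27 at 4.0 h, against -0.76 to -0.72 on the other middle arrays, and E2f7 at -0.26 at 4.0 h, against -0.55 to -0.51. Pmaip1 stood at -0.69 at 4.0 h, against -0.43 to -0.40, and Ythdc1 at -0.35 at 2.5 h, against -0.60 to -0.57.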

How the results depend on the processing

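Membership depended most on how probe sets were combined: 66 of the 150 members stayed among the 150 highest scores with 1 probe set per gene (largest variance), 132 without probe sets that can bind related transcripts, and 140 to 149 with quantile normalization, centring, the median over probe sets or without probe sets on 1 side of a ratio of 1. With 1 probe set per gene the lowest of the 150 highest scores rose from 0.338 to 0.486. Members that have 1 probe set kept their score there, so they could leave the 150 without a smaller dip. Leaving out 1 array kept 120 (without 0 h) to 144, with a lowest member score of 0.313 to 0.372, and 82 stayed whichever array was left out. For the later 2 minus the earlier 2 arrays, quantile normalization gave 116 genes higher, 79 lower and 6 members lower in the early window, and 11 higher, 16 lower and 1 member higher in the middle window. With 1 probe set per gene the middle window gave 9 higher and 26 lower, and with a variance trend 3 lower. With only the arrays of that window in the fit, which leaves fewer samples, 0 genes and 0 members passed in the early window, and 0 genes higher and 0 lower in the middle window. Leaving out 1 array gave 18 to 525 genes higher and 34 to 416 lower in the early window, with 5 to 28 members lower and 0 higher (27 and 45 genes without 0.5 h, and the lowest counts without 2.0 h), and 0 to 3 higher and 0 to 8 lower in the middle window. The cause of the other changes was not tested. No paired analysis was possible because each time had 1 array and no time was repeated. Without repeated times, a change in the cells and a difference between arrays cannot be told apart.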

Other observations

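Dips of this form also occurred in probe sets that name no gene or several genes: 48 of 10092 (0.476%) reached the lowest score of a member, the highest at 0.947, against 1.72% of the probe sets that name 1 gene.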
